A study of Homo sapiens with 12 samples.

Results

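Expression of 9 transcription factors linked to the mesenchymal state of neuroblastoma cells was described across 2 neuroblastoma cell lines and their response to STM2457. The members were taken by symbol from the 19923 genes counted: PRRX1, MEOX1, MEOX2, SIX4, SNAI2, TWIST1, SOX9, TBX18 and RUNX1. All 9 were present in the count tables. SK-N-BE2 and NGP are established human neuroblastoma lines with amplified MYCN, both given as wild type. Each line was cultured for 6 days with DMSO, the solvent control, or with STM2457, a small molecule that blocks the RNA methyltransferase METTL3. The compound was given at 12 µM to SK-N-BE2 and at 1 µM to NGP. Each of the 4 groups had 3 replicates, so that 12 libraries of polyadenylated RNA were compared.

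Neuroblastoma cells occur in an adrenergic state, held by factors such as HAND2 and GATA3, and in a mesenchymal state that resembles neural crest precursors and stroma. The mesenchymal state is marked by extracellular matrix, migration genes and another set of transcription factors, and cells can pass from one state to the other. PRRX1 is a paired-type homeobox factor that can drive adrenergic cells towards the mesenchymal state. TWIST1 and SNAI2 are regulators of epithelial-mesenchymal transition that bind E-box motifs, SOX9 specifies neural crest and cartilage, and TBX18 marks pericytes and other mesenchymal progenitors. MEOX1, MEOX2 and SIX4 are homeobox factors of somite and muscle development, and RUNX1 is best known as a regulator of blood formation.

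The start-site regions of 3 factors are shown, PRRX1 and SIX4 as homeobox factors called higher in NGP and TBX18 as called higher with STM2457 in both lines. They let a reader see what lies before a RefSeq start of each. RefSeq promoter windows (GRCh38.p14) were matched for 5 of the 9 factors, namely PRRX1, MEOX2, SIX4, TBX18 and RUNX1. The PRRX1 window lies within the counted gene span, which starts at 170662728, so it is not upstream of the whole gene. The 250 bases before the RefSeq start are printed 5′ to 3′ on the strand of the gene, with capitals marking CCAAT boxes on either strand (CCAAT or ATTGG).
PRRX1 (chr1:170663881-170664130, plus strand): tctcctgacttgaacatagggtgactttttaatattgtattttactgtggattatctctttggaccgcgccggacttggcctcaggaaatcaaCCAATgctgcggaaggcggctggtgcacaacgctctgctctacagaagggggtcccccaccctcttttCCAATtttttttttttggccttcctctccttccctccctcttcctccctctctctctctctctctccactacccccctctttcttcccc
SIX4 (chr14:60724352-60724601, minus strand): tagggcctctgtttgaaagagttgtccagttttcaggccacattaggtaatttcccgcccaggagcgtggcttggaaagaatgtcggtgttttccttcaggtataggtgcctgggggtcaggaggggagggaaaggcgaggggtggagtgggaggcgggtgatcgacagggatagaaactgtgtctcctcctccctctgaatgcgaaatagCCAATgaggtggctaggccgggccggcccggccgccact
TBX18 (chr6:84764599-84764848, minus strand): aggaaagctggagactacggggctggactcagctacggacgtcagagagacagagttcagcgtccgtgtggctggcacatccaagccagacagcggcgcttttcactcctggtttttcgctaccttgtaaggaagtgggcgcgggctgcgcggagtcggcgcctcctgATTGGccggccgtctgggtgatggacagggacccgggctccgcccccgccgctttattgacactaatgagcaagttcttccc
PRRX1 held 2 CCAAT boxes in this window, and SIX4 and TBX18 held 1 each. A CCAAT box was found in 32.0% of the 34788 windows of this length searched. None of these 3 windows held an E-box of the form CANNTG, the motif bound by TWIST1 and, in its CACCTG form, by SNAI2. Of the matched windows not shown, MEOX2 held 1 E-box and 0 CCAAT boxes, and RUNX1 held 0 E-boxes and 2 CCAAT boxes. An E-box was found in 61.8% of all windows, and CACCTG or CAGGTG in 17.5%. The number of CpG pairs was 6 for PRRX1, 11 for SIX4 and 20 for TBX18, against a median of 11. These matches are a description of the letters, and binding was not measured.

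The compound acts on the enzyme that methylates adenosine in messenger RNA, for which GGACT is the commonest form of the consensus. On the sense strand of the canonical transcripts in GENCODE 44, the motif occurred 1.23 times per kilobase in TWIST1, 0.76 times in SOX9, 0.47 times in TBX18 and 0.46 times in SNAI2, the factors that rose in NGP, against a median of 0.92 over 20046 genes. Among the factors not called or not tested in NGP, it occurred 1.87 times in MEOX1, 1.48 in PRRX1, 0.84 in MEOX2 and RUNX1 and 0.31 in SIX4. In SK-N-BE2 the factors called higher with STM2457 were MEOX1, RUNX1 and TBX18, so this grouping holds for NGP only. At least 1 GGACT was present in 87.8% of the transcripts of all 20046 genes. The first such site in the coding sequence is shown for TWIST1 and SOX9, with the motif in capitals.
TWIST1 (coding position 504): gacgagctGGACTccaagatg
SOX9 (coding position 84): atgtccgaGGACTccgcgggc
Methylation of these sites was not measured in these libraries.

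The libraries held between 47242379 and 58159937 counted reads. Levels are given as CPM, counts scaled to the library total with TMM factors over all 12 libraries. METTL3 transcript, that of the compound's target, measured 50.8 to 57.3 CPM without and 78.0 to 80.8 CPM with STM2457 in SK-N-BE2. In NGP the means were 40.4 ± 3.59 and 77.7 ± 2.46 CPM (SD, n = 3). Of 18 adrenergic core factors, 17 reached a mean of 1 CPM in SK-N-BE2 DMSO and 18 in NGP DMSO. Replicate 1 of the NGP DMSO group stood apart from its group, with a chi-square per degree of freedom of 97.1 and 63.6 against the other replicates and 11.4 between those. Values without it are given where a call or a sign changed. The file headers name 1 data folder for each line, taken here as a possible batch. The effects of line, dose and such a batch cannot be told apart where the lines are compared. The labels do not say whether replicates were separate cultures, so p-values measure the spread between these libraries.

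The lines differed in which factors they expressed. A factor was called silent in a group when all 3 libraries lay under 0.1 CPM, and expressed from a mean of 1 CPM. PRRX1 and MEOX2 were silent in SK-N-BE2 DMSO, and MEOX1 was silent in NGP DMSO. SK-N-BE2 expressed TWIST1, SOX9, SNAI2 and TBX18, and NGP DMSO expressed these except SOX9, together with PRRX1 and SIX4. The exception of SOX9 is a narrow one, as its mean in NGP DMSO was 0.969 CPM. Replicates 1 and 2 lay above 1 CPM, at 1.11 and 1.02 CPM, and replicate 3 below it, at 0.778 CPM. The limit for expressed was not varied. With STM2457, PRRX1 remained the 1 silent factor of SK-N-BE2, and no factor was silent in NGP. These states rest on single libraries for the MEOX pair: MEOX2 counted as silent in NGP DMSO, too, without replicate 2, and MEOX1 in SK-N-BE2 DMSO without replicate 1. With STM2457, MEOX2 counted as silent in SK-N-BE2 without replicate 2 and in NGP without replicate 1, and MEOX1 in NGP without replicate 2. Between these limits, with means under 1 CPM, lay SIX4, RUNX1 and MEOX1 in SK-N-BE2 DMSO and SOX9, RUNX1 and MEOX2 in NGP DMSO. In bulk RNA, fewer cells expressing a factor and less RNA per cell cannot be told apart.

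**Figure D1:**
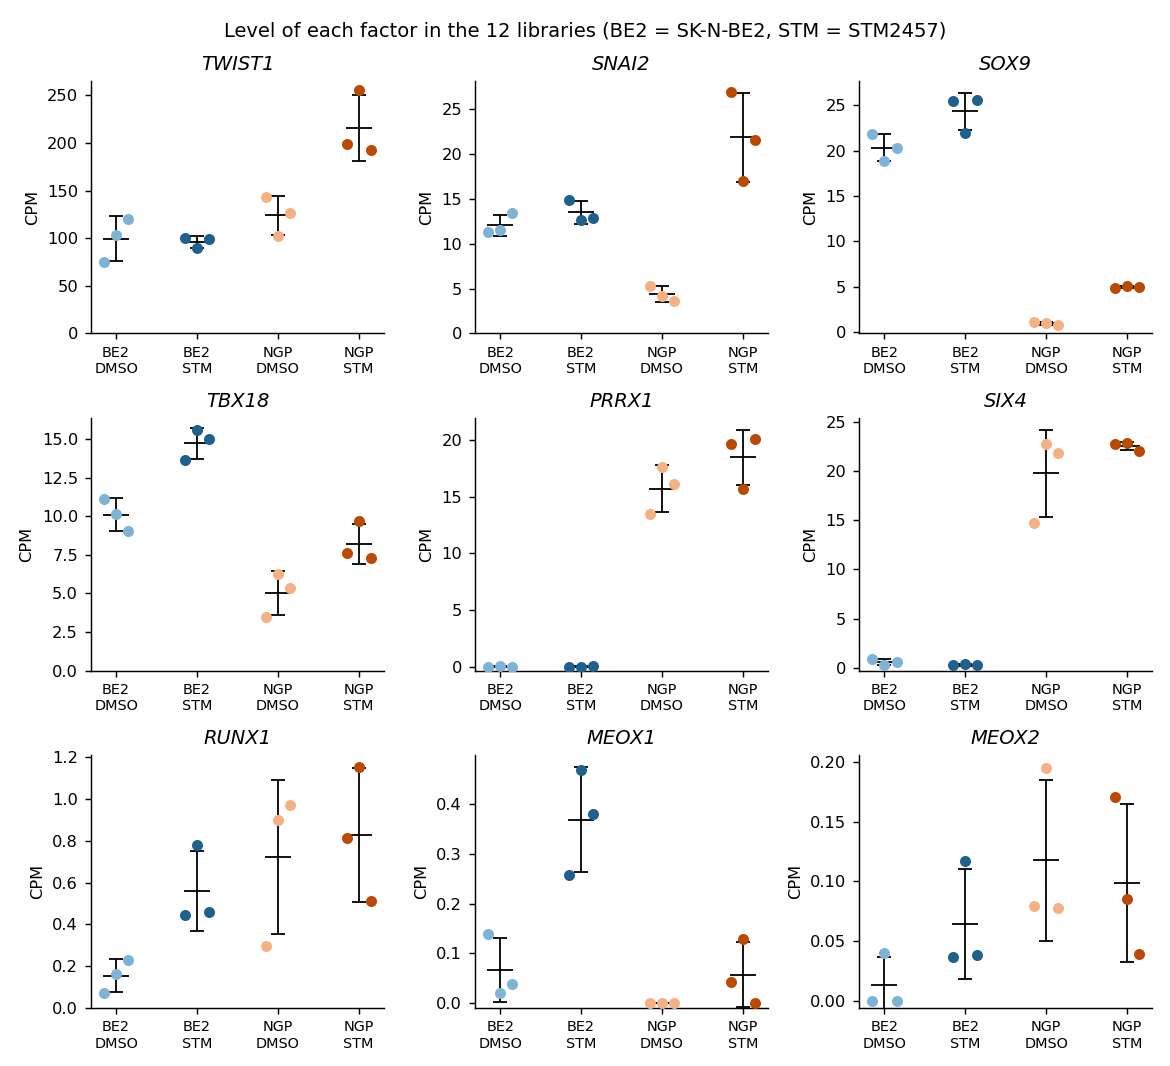
CPM of each of the 9 factors in the 12 libraries, 1 point per library, with the mean and SD of each group of 3 as lines; each panel has its own axis. PRRX1 and SIX4 lie under 1 CPM in every SK-N-BE2 library and above 13 CPM in every NGP library, and MEOX1 and MEOX2 stay under 0.5 CPM throughout.

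PRRX1 (chromosome 1, 170662728 to 170739421, plus strand, GRCh38) was read only 4 times in the SK-N-BE2 DMSO libraries together, all in replicate 2, and 4 times with STM2457, all in replicate 3. NGP DMSO replicates 1, 2 and 3 held 679, 899 and 828 reads. In CPM these NGP libraries measured 13.5, 17.6 and 16.1. The level in NGP DMSO was 626 times that in SK-N-BE2 DMSO, with an exact 95% interval of 244 to 2300 that covers counting error only. In the edgeR quasi-likelihood fit the log2 difference, SK-N-BE2 minus NGP, was -9.14 (SE 0.49, adjusted p 8.79e-08). Without SK-N-BE2 DMSO replicate 2 no read remained in that group, and the fitted value is then no measure of size. Without replicate 1 the value was -8.55. Its RefSeq window, shown above and lying within the gene span, had the fewest CpG pairs of the 5 matched.

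SIX4 (chromosome 14, 60709539 to 60724351, minus strand) showed the same order of the lines. SK-N-BE2 DMSO replicates 1, 2 and 3 measured 0.874, 0.322 and 0.554 CPM, and NGP DMSO 14.7, 22.7 and 21.9 CPM. The groups did not overlap, and the log2 difference was -5.05 (SE 0.33, adjusted p 3.71e-07 by edgeR).

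SOX9 (chromosome 17, 72121020 to 72126416, plus strand) had the opposite order, at 21.8, 18.8 and 20.3 CPM in SK-N-BE2 DMSO replicates 1, 2 and 3. In NGP DMSO it measured 1.11, 1.02 and 0.778 CPM. The log2 difference was 4.40 (SE 0.20, adjusted p 2.64e-08 by edgeR). SNAI2 (chromosome 8, minus strand) measured 11.3, 11.5 and 13.4 CPM in SK-N-BE2 and 5.34, 4.23 and 3.58 CPM in NGP, a log2 difference of 1.47 (SE 0.19, adjusted p 6.22e-05 by edgeR). TBX18 (chromosome 6, 84687351 to 84764598, minus strand) measured 11.1, 10.2 and 9.04 CPM in SK-N-BE2 and 3.49, 6.24 and 5.35 CPM in NGP. Its log2 difference was 1.02 (SE 0.23, adjusted p 0.00274 by edgeR). For each of these 3 factors every SK-N-BE2 DMSO library lay above every NGP DMSO library.

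TWIST1 (chromosome 7, 19020991 to 19117636, minus strand) was the one tested factor that was not called between the lines. It measured 74.8, 104 and 121 CPM in SK-N-BE2 DMSO and 143, 102 and 126 CPM in NGP DMSO. The groups overlapped, and the log2 difference of -0.30 had a 95% interval of -0.71 to 0.11 (adjusted p 0.174 by edgeR). RUNX1 (chromosome 21, 34787801 to 36004667, minus strand) was low in both lines, at 0.0699, 0.161 and 0.229 CPM in SK-N-BE2 and 0.298, 0.900 and 0.972 CPM in NGP. It was lower in SK-N-BE2 by a log2 difference of -2.23 (SE 0.60, adjusted p 0.00743 by edgeR), on 24 reads against 111. With counts halved, or with genes under a mean of 1 CPM left out, RUNX1 was no longer tested.

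The homeobox factors of the MEOX pair had too few reads for the test on the 6 DMSO libraries, and in the joint fit of 12 libraries MEOX1 was tested and called higher in SK-N-BE2. MEOX1 (chromosome 17, 43640389 to 43661922, minus strand) had 8, 1 and 2 reads in SK-N-BE2 DMSO replicates 1, 2 and 3 and 0 in NGP DMSO, at least 3.52-fold higher in SK-N-BE2 against the floor of 3 reads over the group (exact lower 95% limit 2.41). Without replicate 1 only 3 reads remain, which is no more than the floor. MEOX2 (chromosome 7, 15611212 to 15686683, minus strand) had 0, 2 and 0 reads in SK-N-BE2 DMSO and 4, 10 and 4 in NGP DMSO. The NGP level of MEOX2 was 9.37 times that of SK-N-BE2, with an exact 95% interval of 2.24 to 83.3 for counting error only. Each of these MEOX2 counts is even and mates were counted singly, so this interval is too narrow and no difference is read from it.

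In all, 6 of the 7 factors tested between the DMSO groups passed the threshold of 0.05 on edgeR's adjusted p, SOX9, SNAI2 and TBX18 higher in SK-N-BE2 and PRRX1, SIX4 and RUNX1 higher in NGP. Over all 14336 genes tested, 64.8% were called, 33.0% higher and 31.8% lower in SK-N-BE2. The groups did not overlap for the same 6 factors, against 69.4% of all genes. The median log2 difference of the tested factors was -0.30, against 0.01 over all genes.

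**Figure D2:**
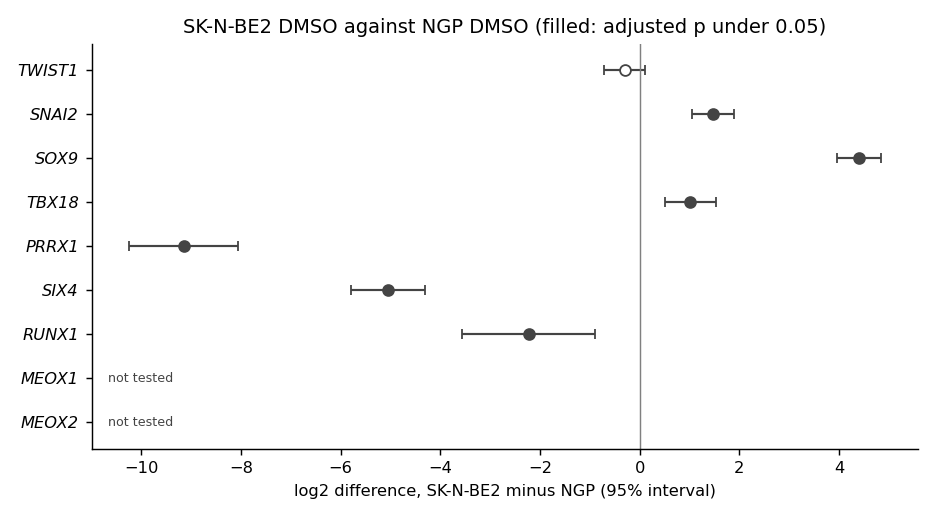
Log2 difference between the DMSO groups, SK-N-BE2 minus NGP, for each factor with its 95% interval; filled points passed an edgeR adjusted p of 0.05. SOX9 lies at 4.40 and PRRX1 at -9.14, and the interval of TWIST1 spans 0.

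Set against exon length (FPKM, CPM per kilobase of the deposited gene length), TWIST1 was the most abundant of the 9 factors in all 4 groups. Its mean was 49.9 FPKM in SK-N-BE2 DMSO and 62.1 FPKM in NGP DMSO. In SK-N-BE2 DMSO the order below it was SOX9 at 5.17, SNAI2 at 3.68 and TBX18 at 1.17 FPKM, with no overlap between neighbours. SIX4 followed at 0.0862 FPKM, and from SIX4 downwards each factor overlapped the next in order. In NGP DMSO, SIX4 at 2.92 FPKM came next and was followed by PRRX1 at 1.91 FPKM, SNAI2 at 1.34, TBX18 at 0.581 and SOX9 at 0.246 FPKM. Of the remaining NGP levels, MEOX2 at 0.0496 and RUNX1 at 0.0464 FPKM overlapped. With STM2457, SNAI2 took the place after TWIST1 in NGP, at 6.66 FPKM.

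**Figure D3:**
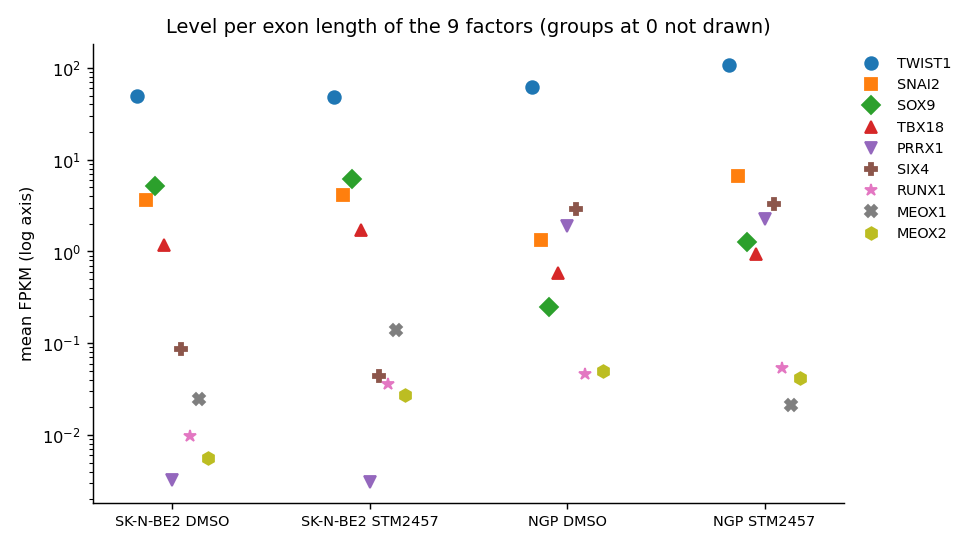
Mean FPKM (log axis) of the 9 factors in each group, 1 symbol per factor, shifted sideways for legibility. TWIST1 is highest in each group, and SIX4 and PRRX1 lie between 1.91 and 3.33 FPKM in NGP and under 0.1 FPKM in SK-N-BE2.

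The study asked how blocking METTL3 affects neuroblastoma cells, and the response of these factors was tested in each line on its own. In NGP, the epithelial-mesenchymal regulators SNAI2 and TWIST1 rose, as did SOX9 and TBX18. SNAI2 measured 27.0, 17.0 and 21.6 CPM with STM2457 in replicates 1, 2 and 3, against the DMSO values of 5.34, 4.23 and 3.58 CPM. Every treated library lay above every control, and the log2 fold change was 2.29 (SE 0.22, adjusted p 0.000113 by edgeR). SOX9 measured 4.87, 5.07 and 4.93 CPM with STM2457, above all 3 DMSO libraries, a log2 fold change of 2.33 (SE 0.21, adjusted p 8.68e-05 by edgeR). The SOX9 mean thereby passed the 1 CPM taken for expressed, from a DMSO mean of 0.969 CPM. DMSO replicates 1 and 2 already lay above that limit. With STM2457, SOX9 in NGP stayed below 18.8 CPM of the lowest SK-N-BE2 DMSO library.

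TWIST1, already the most abundant factor per length, measured 199, 256 and 193 CPM in NGP with STM2457, above all 3 controls. The log2 fold change was 0.78 (SE 0.15, adjusted p 0.00449 by edgeR). TBX18 measured 7.63, 9.71 and 7.30 CPM with STM2457, and its lowest treated library lay above the highest control at 6.24 CPM. The log2 fold change was 0.68 (SE 0.23, adjusted p 0.0433 by edgeR). Of 6 fits with 1 library removed, 4 no longer called TBX18, those without DMSO replicate 3 or any 1 of the treated libraries (adjusted p up to 0.130 by edgeR).

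PRRX1, SIX4 and RUNX1, the factors called higher in NGP than in SK-N-BE2 with DMSO, were not called in the NGP response. PRRX1 measured 19.6, 15.7 and 20.1 CPM with STM2457, overlapping the DMSO libraries, with a log2 fold change of 0.21 (95% interval -0.14 to 0.55, adjusted p 0.309 by edgeR). SIX4 measured 22.7, 22.9 and 22.1 CPM, also overlapping, with a log2 fold change of 0.17 (95% interval -0.22 to 0.55, adjusted p 0.467 by edgeR). That of RUNX1 was 0.16 (95% interval -0.96 to 1.28, adjusted p 0.816 by edgeR), and its treated libraries measured 0.812, 1.16 and 0.513 CPM. Without DMSO replicate 1, the SIX4 value became -0.01 and the RUNX1 value -0.21, and neither was called. MEOX1 had 2, 6 and 0 reads with STM2457 against 0 with DMSO, at least 2.83-fold higher against 3 reads over the group (exact lower 95% limit 1.81), with 6 of the 8 reads in replicate 2 and fewer than the floor without it. MEOX2 had 8, 4 and 2 reads, 0.824 times the DMSO level with an exact 95% interval of 0.379 to 1.75 for counting error.

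In NGP, 4 of 7 tested factors were thus called higher and 0 lower, and 3 were not called. Over all 13610 genes tested in this line 41.7% were called, 19.4% higher and 22.2% lower. The groups did not overlap for the same 4 factors, against 54.7% of all genes. The median log2 fold change of the tested factors was 0.68, against -0.03 over all genes.

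In SK-N-BE2 the factors that rose were TBX18 and the sparsely read RUNX1 and MEOX1. TBX18 measured from 13.6 to 15.6 CPM with STM2457, above all 3 DMSO libraries, a log2 fold change of 0.51 (SE 0.12, adjusted p 0.00232 by edgeR). RUNX1 measured 0.443, 0.781 and 0.457 CPM, on 88 reads in all, again above every control. Its log2 fold change was 1.83 (SE 0.51, adjusted p 0.00841 by edgeR), and the call was lost without STM2457 replicate 2 (adjusted p 0.0577). MEOX1 measured 0.259, 0.469 and 0.381 CPM, above the 3 controls, of which the highest was 0.140 CPM. Its log2 fold change was 2.35 (SE 0.66, adjusted p 0.00804 by edgeR) on 58 reads against 11. Without DMSO replicate 1, which held 8 of the 11 control reads, it was 3.51 (adjusted p 0.00355 by edgeR). With counts halved to approximate read pairs MEOX1 no longer had enough reads to be tested. Both factors stayed under 1 CPM, so their levels remained low after the rise.

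The remaining factors of SK-N-BE2 were not called. TWIST1 measured 101, 89.3 and 99.0 CPM with STM2457, within the range of its controls, a log2 fold change of -0.09 (95% interval -0.38 to 0.21, adjusted p 0.608 by edgeR). SNAI2 measured 14.9, 12.6 and 12.9 CPM, a log2 fold change of 0.12 (95% interval -0.13 to 0.37, adjusted p 0.389 by edgeR). SOX9 measured 25.4, 21.9 and 25.6 CPM, just above its highest control of 21.8 CPM, a log2 fold change of 0.22 (adjusted p 0.0826 by edgeR). Without DMSO replicate 1, SOX9 was called higher (0.27, adjusted p 0.0446 by edgeR) and TWIST1 lower (-0.26, adjusted p 0.0242 by edgeR), while without DMSO replicate 3 the TWIST1 value was 0.07. SIX4 measured 0.277, 0.391 and 0.228 CPM, a log2 fold change of -1.01 (95% interval -2.00 to -0.02, adjusted p 0.0782 by edgeR). It was called without DMSO replicate 2 (-1.29, adjusted p 0.0307 by edgeR) and in the joint fit of 12 libraries (-0.98, adjusted p 0.0391 by edgeR), while it was -0.59 (adjusted p 0.352 by edgeR) without DMSO replicate 1, which held 50 of the 95 control reads. PRRX1 held 4 reads in each group, and MEOX2 had 2, 6 and 2 reads with STM2457 against 2 in all with DMSO, a ratio of 5.04 with an exact 95% interval of 1.07 to 47.3 for counting error only. All these MEOX2 counts are even and mates were counted singly, so the interval is too narrow and no difference is read from it.

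In SK-N-BE2, 3 of 7 tested factors were called higher and 0 lower, and 4 were not called. Of all 14013 genes tested, 54.7% were called, 26.9% higher and 27.8% lower. Treated and control libraries did not overlap for 4 factors, the 3 called and SOX9, against 62.2% of all genes. The median log2 fold change of the tested factors was 0.22, against -0.02 over all genes. The count of called factors was 5 without DMSO replicate 1, and 1 (TBX18) where genes under a mean of 1 CPM were left out.

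**Figure D4:**
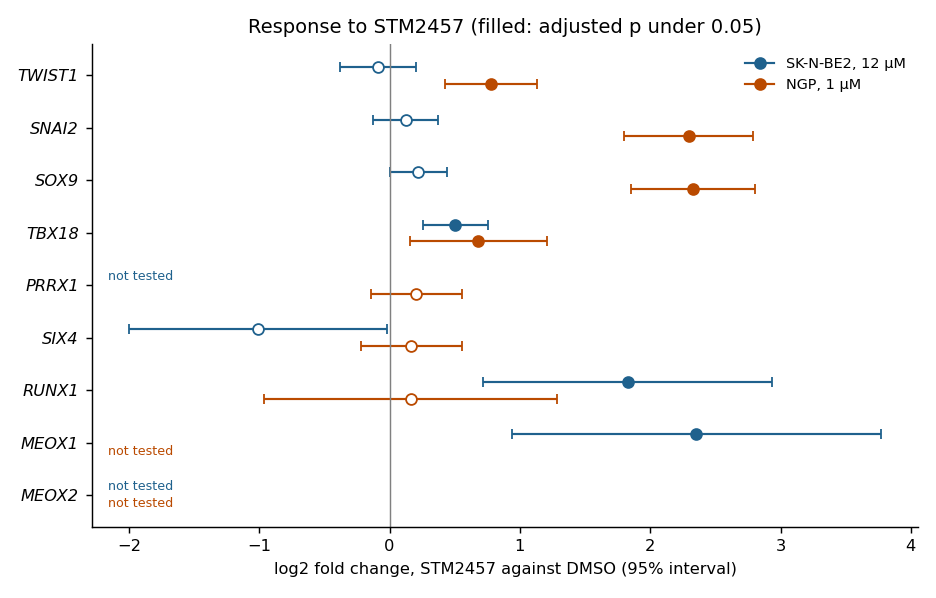
Log2 fold change of each factor with STM2457 against DMSO, with 95% intervals, in SK-N-BE2 (12 µM, blue) and NGP (1 µM, orange); filled points passed an edgeR adjusted p of 0.05. SNAI2 and SOX9 lie at 2.29 and 2.33 in NGP and at 0.12 and 0.22 in SK-N-BE2, while the TBX18 intervals of the lines overlap.

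Whether the lines responded differently was tested over all 12 libraries, as the SK-N-BE2 response minus that of NGP, with 8 factors passing the filter. A difference was called for SNAI2 at -2.16 (SE 0.25, adjusted p 2.71e-05 by edgeR), SOX9 at -2.09 (SE 0.19, adjusted p 4.01e-06), TWIST1 at -0.85 (SE 0.24, adjusted p 0.0137) and SIX4 at -1.17 (SE 0.42, adjusted p 0.0461). All 4 were lower in SK-N-BE2, against 30.9% of 14731 genes called in either direction and 13.9% called lower. Of 12 fits with 1 library removed, 8 no longer called SIX4 (adjusted p up to 0.173 by edgeR). The SIX4 call was also lost with the replicate number as a block (adjusted p 0.0772 by edgeR) and with counts halved (adjusted p 0.0613). The TBX18 difference was -0.16 (95% interval -0.73 to 0.40, adjusted p 0.684 by edgeR) and 0.03 without NGP DMSO replicate 1, and that of RUNX1 was 1.68 (95% interval 0.07 to 3.29, adjusted p 0.106). RUNX1 was called without NGP DMSO replicate 1 (2.03, adjusted p 0.0252 by edgeR). PRRX1 and MEOX1 were not called (adjusted p 0.936 and 0.415 by edgeR). The dose was 12 µM in one line and 1 µM in the other, and the part of the dose was not tested.

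The baseline comparison and the responses share their DMSO libraries, so their values are given only side by side. SNAI2 stood at 12.1 ± 1.17 CPM in SK-N-BE2 DMSO, 4.38 ± 0.891 CPM in NGP DMSO and 21.9 ± 4.98 CPM in NGP with STM2457 (SD, n = 3). TWIST1 stood at 99.7 ± 23.2, 124 ± 20.8 and 216 ± 34.9 CPM in the same groups. TBX18 stood at 10.1 ± 1.05, 5.03 ± 1.40 and 8.21 ± 1.31 CPM. In NGP with STM2457, SNAI2 and TWIST1 thus lay above every SK-N-BE2 library, and SOX9 lay below every one.

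Other genes of the programme were read from lists chosen with earlier results of these data known, and changes are given as log2 fold changes. The counts of every list stand beside the shares over all genes tested. With STM2457 these were 26.9% higher and 27.8% lower in SK-N-BE2, and 19.4% higher and 22.2% lower in NGP. At baseline 33.0% were higher and 31.8% lower in SK-N-BE2. Among 20 further mesenchymal-state regulators, 7 rose and 3 fell of 14 tested in NGP, and 5 rose and 5 fell of 17 in SK-N-BE2. SMAD3, which carries TGF-beta signals to the nucleus, rose in NGP by a log2 fold change of 3.10 (adjusted p 1.38e-05 by edgeR), and ID3, an inhibitor of basic helix-loop-helix factors such as TWIST1, by 2.57 (adjusted p 4.22e-05). ID3 also rose in SK-N-BE2, by 0.77 (adjusted p 1.95e-05 by edgeR). IRF1, an interferon-response factor, fell in both lines, by 2.46 in SK-N-BE2 (adjusted p 5.06e-07 by edgeR) and by 2.74 in NGP (adjusted p 3.23e-05).

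The 10 further epithelial-mesenchymal transition factors counted 1 higher and 1 lower of 8 tested in each line. SNAI1, the close relative of SNAI2, fell in SK-N-BE2 from 4.77 ± 0.627 to 2.54 ± 0.746 CPM (adjusted p 0.00259 by edgeR) and rose in NGP from 17.4 ± 1.01 to 57.7 ± 2.66 CPM (adjusted p 1.58e-05, SD, n = 3). The SNAI1 response difference was -2.64 (SE 0.24, adjusted p 3.77e-06 by edgeR). ZEB2, an E-box repressor, rose in SK-N-BE2 by 0.54 (adjusted p 0.000157 by edgeR). FOXC2, a forkhead factor of mesenchymal tissue, fell in NGP by 2.42 (adjusted p 0.00204).

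Paralogues of the 9 factors, a list that shares SNAI1, SNAI3, TWIST2 and PRRX2 with the former, counted 3 higher and 3 lower of 12 tested in NGP and 1 higher and 3 lower of 10 in SK-N-BE2. SIX5 rose in NGP by 2.42 (adjusted p 0.00101 by edgeR), and RUNX3 fell there by 0.91 (adjusted p 0.00661). RUNX3, a relative of RUNX1, was read 5 times over the SK-N-BE2 DMSO libraries against 17.6 ± 0.285 CPM in NGP DMSO. SIX3 fell in both lines, by 0.93 in SK-N-BE2 (adjusted p 0.000188 by edgeR) and by 0.66 in NGP (adjusted p 0.0477).

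Partner proteins, with which the factors act in complexes, counted 7 higher and 2 lower of 15 tested in SK-N-BE2 and 1 higher and 1 lower of 15 in NGP. EYA1, a coactivator of homeobox proteins such as SIX4, rose in SK-N-BE2 by 0.77 (adjusted p 3.93e-06 by edgeR) and in NGP by 0.59 (adjusted p 0.00813). RUNX1T1, a corepressor known as a fusion partner of RUNX1 in leukaemia, fell in SK-N-BE2 from 32.2 ± 3.62 to 9.55 ± 1.17 CPM (SD, n = 3), a change of -1.79 on the log2 scale (adjusted p 9.27e-08 by edgeR). In NGP it fell by 0.40 (adjusted p 0.0153 by edgeR), and the difference between the responses was -1.38 (adjusted p 2.84e-05). TCF3, the E protein with which TWIST1 can dimerise, rose in SK-N-BE2 by 0.57 (adjusted p 0.000419 by edgeR). At baseline, 10 of 15 tested partners were lower and 2 higher in SK-N-BE2, against 64.8% of all genes called in either direction. The 2 higher were EYA1 at 1.34 and CBFB, the partner subunit that strengthens DNA binding of RUNX proteins, at 0.74 (adjusted p 2.34e-05 and 0.000362 by edgeR).

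Mesenchymal effector genes, such as matrix and cytoskeletal genes, counted 13 higher and 2 lower of 21 tested in NGP, with a median of 0.78. In SK-N-BE2, 15 rose and 7 fell of 29 tested, with a median of 0.31. COL3A1, a fibrillar collagen, had the largest rise of this list in NGP, at 4.59 (adjusted p 2.61e-06 by edgeR). TNC, a matrix glycoprotein, fell there by 1.44 (adjusted p 0.000217). In SK-N-BE2, PDGFRA, a growth factor receptor of mesenchymal cells, rose by 1.62 (adjusted p 2.96e-05 by edgeR) and ACTA2, smooth muscle actin, fell by 2.28 (adjusted p 2.99e-07). At baseline 20 of 28 tested effectors were higher and 7 lower in SK-N-BE2, with a median log2 difference of 2.08. Over all genes tested, 33.0% were higher and 31.8% lower.

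The adrenergic core factors moved in both directions. In NGP 4 rose and 3 fell of 18 tested, and TBX3 had the largest rise, at 1.38 (adjusted p 3.80e-05 by edgeR). In SK-N-BE2 6 rose and 3 fell of 17 tested. The zinc-finger factor INSM1 was lower in both lines, with values of -0.95 in SK-N-BE2 (adjusted p 0.000632 by edgeR) and -1.58 in NGP (adjusted p 0.000156).

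**Figure D5:**
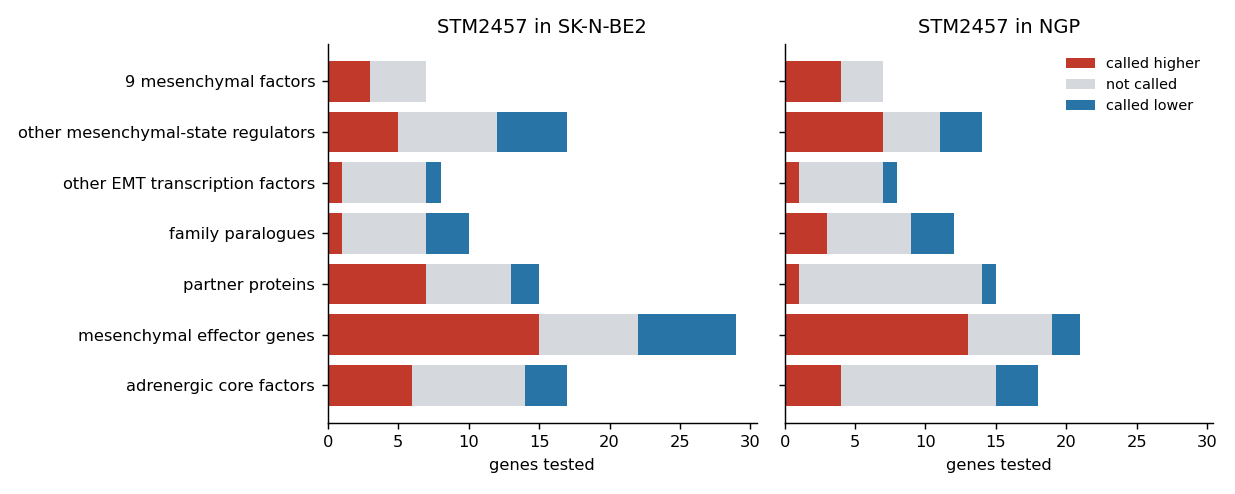
Number of genes tested in each list (horizontal axis) that were called higher (red), not called (grey) or called lower (blue) with STM2457 at an edgeR adjusted p of 0.05, in SK-N-BE2 and NGP. No member of the 9 factors was called lower in either line, and effectors called higher number 15 of 29 in SK-N-BE2 and 13 of 21 in NGP. Over all genes tested, 26.9% were called higher in SK-N-BE2 and 19.4% in NGP.

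Markers of other cell types moved beside these factors. Over all genes tested, 26.9% rose in SK-N-BE2 and 19.4% in NGP. Of 10 fibroblast markers, 5 of which are also effectors above, 6 of 7 tested rose and 0 fell in each line. Their summed level was 258 to 276 CPM in NGP DMSO and 527 to 599 CPM with STM2457, and 441 to 475 against 602 to 658 CPM in SK-N-BE2. Among them, FAP had 0 reads in both NGP groups, and MFAP5 had 0 in NGP DMSO and both SK-N-BE2 groups. The 9 Schwann and glial markers found in the files summed to 16.9 to 18.7 CPM in SK-N-BE2 DMSO and 42.0 to 50.0 CPM with STM2457, with FOXD3 and CDH19 at 0 reads in both groups. In NGP they summed to 228 to 285 CPM with DMSO and 180 to 241 CPM with STM2457. Of 4 tested in each line, 2 rose and 1 fell in SK-N-BE2, and 0 rose and 2 fell in NGP. The 10 haematopoietic and endothelial markers summed to 20.4 to 26.2 and 15.3 to 18.4 CPM in SK-N-BE2 without and with STM2457, and to 5.97 to 7.92 and 9.47 to 12.0 CPM in NGP, where PTPRC, CD3E and PECAM1 had 0 reads. Of the haematopoietic and endothelial markers, 1 rose and 3 fell of 6 tested in SK-N-BE2, and 2 rose and 0 fell of 3 tested in NGP. The part of all these markers in the response of the 9 factors was not tested.

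The genes nearest in pattern were ranked by the root mean square difference of centred log2 CPM over the 12 libraries, which share the separation of the lines. TWIST1 was followed most closely by SIPA1 at 0.10 and DLX5 at 0.15, and TBX18 by PCDHAC1 at 0.11 and LRP8 at 0.14. SOX9 had S1PR1 at 0.20 and GM2A at 0.23, and SNAI2 had ZCCHC24 at 0.27 and BMF at 0.28. SIX4 lay nearest ZIC4 at 0.37 and KANK4 at 0.41, and PRRX1 nearest EFS at 0.52 and TRHDE at 0.54. The sparsely read RUNX1 and MEOX1 had SLC25A53 at 0.43 and IGSF10 at 0.56 as their closest.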

How the data were processed

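RNA of 12 libraries was analysed, and their titles gave the line, the treatment and the replicate number. The authors deposited raw counts of reads for each gene, as whole numbers without scaling. Per the file headers, the authors counted with featureCounts 2.0.5 on exons by gene name of GENCODE 33 protein-coding genes, with no strand option, multi-mapping reads left out and pairs not counted as 1. Up to 2 counts can therefore come from 1 fragment, and 72.1% to 75.4% of counts from 1 to 20 were even, so counting intervals are too narrow. The submitters' processing notes name HISAT2 2.1.0, Trimmomatic 0.36, FastQC 0.11.5, Subread 1.5.3 and GRCh38. Exons of TWIST1 and SNAI2 share 7.1% and 3.7% of their length with antisense lncRNA genes in GENCODE 44, and those of the other 7 factors share none.

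From the counts, edgeR 4.0.16 (R 4.3.3) was fitted over all genes with filterByExpr (minimum count 10), TMM and the quasi-likelihood test, and p-values were adjusted by Benjamini-Hochberg and called under 0.05. Each line and the DMSO groups were fitted on 6 libraries, and the difference between responses on 12. Fits were tested on simulated counts in which 200 genes had a true log2 change of 1. All genes had the same dispersion, below the common one fitted to the NGP and baseline data and above it in the other fits. Only genes with expected counts above 10 were changed, so recovery was not measured for sparser factors. Recovery was 93.4% for SK-N-BE2 over 14006 genes, 93.9% for NGP over 13513, 90.5% at baseline over 13552 and 68.5% for the response difference over 14690, and false calls were 4.69%, 7.92%, 5.24% and 3.52% of the calls made. A group at 0 was set to a floor of 3 reads, and ratios of sparse factors carry exact 95% intervals. The members and all lists were chosen with earlier results of these data known. All 9 members were named, METTL3 once, and from each list at most the 2 largest called changes per direction and comparison with a mean of at least 1 CPM, plus the 2 nearest genes in pattern. TWIST2, PRRX2, SNAI3 and the markers at 0 reads are named to describe their lists. A few list genes are not reported here. The alternatives were DESeq2 size factors, no filter on low counts, a stricter one at a mean of 1 CPM, a replicate block, DESeq2 1.42.0, halved counts, a joint fit, other limits for silence and leaving out each library. The depth was 47242379 to 58159937 reads per library.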

Additional observations from a re-analysis of the deposited data

Results flagged for a closer look

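The response to STM2457 differed between the lines for 4 factors, by the edgeR test of the difference itself (SK-N-BE2 minus NGP, 12 libraries). It was -2.16 for SNAI2, -2.09 for SOX9, -0.85 for TWIST1 and -1.17 for SIX4 on the log2 scale. SNAI2, SOX9 and TWIST1 were called each time 1 of the 12 libraries was removed, and SIX4 in 4 of these 12 fits. The SIX4 difference rests on 95 reads in SK-N-BE2 DMSO and 47 with STM2457. It was not called with counts halved (adjusted p 0.0613 by edgeR) or with the replicate number as a block (adjusted p 0.0772). Line, dose and a possible batch by data folder cannot be told apart in these differences.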

How the results depend on the processing

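Over 29 pairs of a factor and a comparison, 379 of 407 repeated values kept their direction and their side of the threshold, 15 lost the call, 5 gained it and 8 changed sign. The 407 leave out fits in which a factor was no longer tested. With a mean of at least 1 CPM, these were among others the called MEOX1 and RUNX1 in SK-N-BE2 and RUNX1 at baseline. With counts halved, the called MEOX1 in SK-N-BE2 and RUNX1 at baseline were not tested either. In SK-N-BE2 the number of factors called with STM2457 was 1 with a mean of at least 1 CPM and ran from 2 to 5 when 1 library was left out. It ran from 3 to 4 in NGP, was 6 at baseline in each such fit, and ran from 3 to 5 for the difference between responses. At baseline it was 5 with counts halved and with a mean of at least 1 CPM, and 7 in the joint fit. The silent factors of SK-N-BE2 DMSO numbered 1 at a limit of 0.05 CPM and 2 to 3 with 1 library left out, and those of NGP DMSO 2 at a limit of 0.2 CPM and 1 to 2. The signs that changed were of values not called by the fits over all libraries. With 1 library left out, the log2 value of TWIST1 in SK-N-BE2 ran from -0.26 to 0.068, in NGP that of SIX4 from -0.012 to 0.28 and that of RUNX1 from -0.21 to 0.43, and the response difference of PRRX1 from -3.73 to 3.29 and of TBX18 from -0.35 to 0.027. These fits had fewer samples, and other causes were not tested. With the replicate number as a block, 3 factors were called in SK-N-BE2, 4 in NGP, 6 at baseline and 3 for the difference, where SIX4 was -1.18. The numbers did not meet the criterion for pairing: for numbers 1, 2 and 3 the correlations of deviations between DMSO and STM2457 libraries were -0.06, 0.09 and 0.03 for SK-N-BE2, and 0.01, -0.07 and 0.02 for NGP, and not every library correlated best with its own number. Depth limits MEOX1, MEOX2, RUNX1 and, in SK-N-BE2, PRRX1 and SIX4.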
